A study of Mus musculus with 16 samples.

Results

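The 39 interferon-stimulated genes described here are a module of antiviral, signalling and GTPase genes, chosen by symbol. Their symbols were matched to the Ensembl gene IDs of the deposited count table through GENCODE M21, and all 39 were found among 46078 genes, of which 45229 received a symbol. Each of the 39 also passed the filter on low counts, which left 15096 genes to test.

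RNA was sequenced from demyelinated lesions of the mouse spinal cord, taken from frozen tissue by laser microdissection. Every mouse, controls included, was a C57BL/6 mouse aged 8 to 12 weeks that had been injected with lysolecithin, a membrane-dissolving lipid used to destroy myelin locally. The groups were day 10 exercise, day 10 control, day 5 exercise and day 5 control, with 4 libraries in each. Exercise mice had a running wheel that turned freely, and control mice had a locked one, so the comparisons ask how the lesion differs with running and with time. The RNA was amplified by the REPLI-g protocol, which can add spread between libraries, and the libraries were poly(A)-selected, single-end and specific for the strand. No label says whether the libraries of a group came from different animals, so the p-values measure the spread between libraries, which may be technical in part. In a bulk lesion sample, fewer cells of a type and less RNA per cell cannot be told apart.

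Type I interferons bind a receptor whose kinases activate STAT proteins, STAT2 among them, and these join IRF9 in a complex that binds the interferon-stimulated response element (ISRE) in front of antiviral genes. Interferon-gamma uses another receptor, whose signal reaches the gamma-activated sequence (GAS), and guanylate-binding proteins and immunity-related GTPases are its classic targets. In the central nervous system microglia, infiltrating myeloid cells, astrocytes and endothelium can all carry such a programme, and a microglial state named for it is known from demyelinating and ageing tissue.

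The main difference lay between the days. In exercise lesions 19 of the 39 genes passed the threshold between day 10 and day 5, against 10.1% of all tested genes, and 18 of the 19 were lower at day 10. In control lesions 3 of the 39 passed, against 12.3% of all tested genes. Under each condition 37 of the 39 log2 fold changes were below 0, against 49.4% of all genes in exercise and 48.8% in control. No member passed between exercise and control at day 10 (0.192% of all genes did) or at day 5 (0%). The called exception to the direction was Ifngr1, a receptor chain, which was higher at day 10 under both conditions. The other values above 0, of Ifi27l2a in exercise (0.27) and Parp14 in control (0.29), did not pass.

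The promoters of the module are shown first, since the response element described above is known in front of antiviral genes. RefSeq (GRCm38.p6) gave a window of 250 bases before to 50 after the start site for 29 of the 39 genes, 33 windows in all; Dhx58, Ifi27l2a, Mx1, Mx2, Oas2, Parp14, Parp9, Rtp4, Usp18 and Zbp1 are named only. The windows were searched for the ISRE core, which is GAAA, any 2 bases and GAAA again, or TTTC, any 2 bases and TTTC when read on the other strand, and for the GAS core TTCNNNGAA, which is its own reverse complement. The 2 cores can overlap each other, as can neighbouring ISRE cores. An ISRE core was present in 17 of the 29 members (58.6%), against 3.99% of the 27025 genes with a window, and a GAS core in 8 of 29 (27.6%), against 9.55% of all genes. A match is a description of the sequence and not evidence of binding.

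The stretches below lie on the gene's own strand, upstream of its start site, and capitals mark the ISRE core or the run of overlapping cores. All are from windows that hold an ISRE core, and the genes were chosen from the IFIT, ISG15, antiviral, transcription factor and GTPase roles. They are not typical of every gene of those roles. Ifit2, Herc6, Irf7 and Irf9 had no ISRE core in their windows. The coordinates are chr19:34640765-34640833 (plus) for Ifit1, chr19:34583353-34583436 (plus) for Ifit3, chr4:156200855-156200916 (minus) for Isg15, chr12:26456543-26456592 (minus) for Rsad2, chr8:71537567-71537622 (minus) for Bst2, chr10:128270256-128270305 (plus) for Stat2, chr3:142530263-142530312 (plus) for Gbp7 and chr11:58199502-58199551 (plus) for Igtp.
Ifit1: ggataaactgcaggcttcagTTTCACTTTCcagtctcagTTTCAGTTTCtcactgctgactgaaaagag
Ifit3: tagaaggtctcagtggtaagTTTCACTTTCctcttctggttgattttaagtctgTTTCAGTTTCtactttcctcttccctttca
Isg15: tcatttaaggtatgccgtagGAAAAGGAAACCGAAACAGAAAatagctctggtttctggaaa
Rsad2: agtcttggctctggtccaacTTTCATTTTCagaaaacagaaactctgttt
Bst2: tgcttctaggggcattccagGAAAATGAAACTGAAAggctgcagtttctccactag
Stat2: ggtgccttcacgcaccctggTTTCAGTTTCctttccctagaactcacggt
Gbp7: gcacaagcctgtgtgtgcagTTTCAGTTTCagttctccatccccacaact
Igtp: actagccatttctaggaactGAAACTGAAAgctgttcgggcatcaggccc

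For comparison, no core was found in the windows of Oasl2 and Ifngr1. The last 60 bases before their start sites are chr5:114896874-114896933 (plus) and chr10:19591889-19591948 (plus). No match says only that these letters are not in the window.
Oasl2: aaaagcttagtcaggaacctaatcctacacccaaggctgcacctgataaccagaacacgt
Ifngr1: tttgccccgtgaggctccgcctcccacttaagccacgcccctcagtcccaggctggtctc

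Ifit1 and Ifit3 each carried 2 separate ISRE cores, and Isg15 carried 3 that overlap in 1 run. In all, 8 members held at least 2 ISRE cores in a single window: Bst2, Gbp3, Ifit1, Ifit3, Ifitm3, Irgm1, Isg15 and Oas1a. Trim30a had 1 in each of its windows. Among the 18 genes that were lower at day 10 in exercise lesions, Irf7, Oasl1, Oasl2, Ifi44 and Xaf1 had a window and no ISRE core in it.

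**Figure D1:**
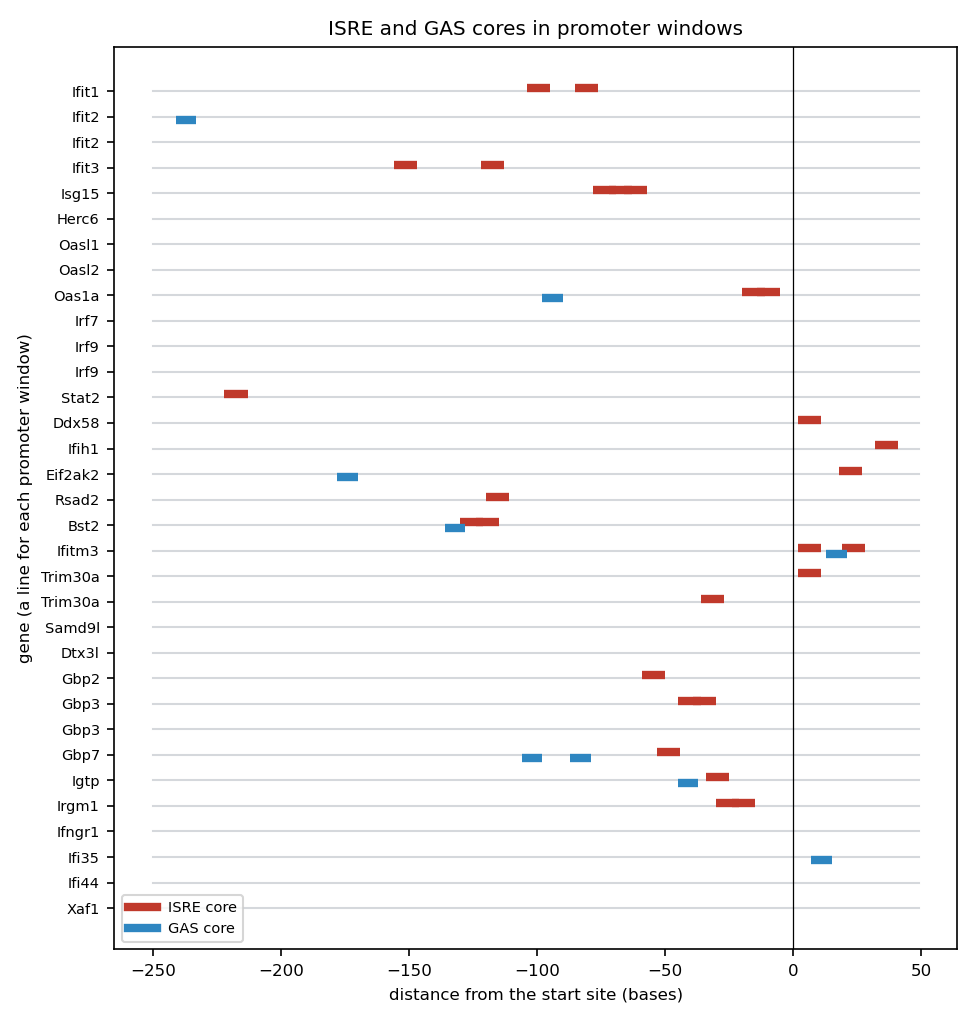
Positions of ISRE cores (red) and GAS cores (blue) in the 33 promoter windows of 29 interferon-stimulated genes. The x axis is the distance from the start site in bases and each grey line is a window; overlapping cores run together, and 17 genes have at least 1 ISRE core.

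Totals were 9773137 to 11089749 counts per library in day 10 exercise, 10714317 to 12696777 in day 10 control, 8125981 to 10930385 in day 5 exercise and 11204380 to 13930582 in day 5 control. The 39 members together took 9382 to 27873 counts of a library. Levels are given as CPM, the depth-scaled count with TMM-scaled library totals. Oligodendrocyte and astrocyte markers were present in every library, with Mbp at 4122 to 10330 CPM and Gfap at 1725 to 3669 CPM. Libraries keep their label numbers: 13, 17, 18 and 19 for day 10 exercise, 2, 3, 4 and 5 for day 10 control, 1, 2, 7 and 12 for day 5 exercise, and 1, 2, 5 and 6 for day 5 control, and values below stand in that order. Tests are edgeR's quasi-likelihood test with Benjamini-Hochberg adjustment over 15096 genes and a threshold of 0.05.

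Per kilobase of exon, the mean CPM over 16 libraries spanned from 223.8 for Ifitm3 to 0.322 for Oas2. Ifngr1 (80.0) and Bst2 (35.1) followed Ifitm3, and then Ifit3 (26.9), Irf9 (20.6), Trim30a (16.7), Ifit2 (14.8) and Rsad2 (14.6). The bottom of the order was held by Xaf1 (1.86), Mx2 (1.86), Oasl1 (1.08), Ifi44 (0.866) and Oas2. The means of Parp9, Isg15 and Gbp2 were nearly the same (11.3 each), and these 3 genes cannot be ordered within their spread between libraries.

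**Figure D2:**
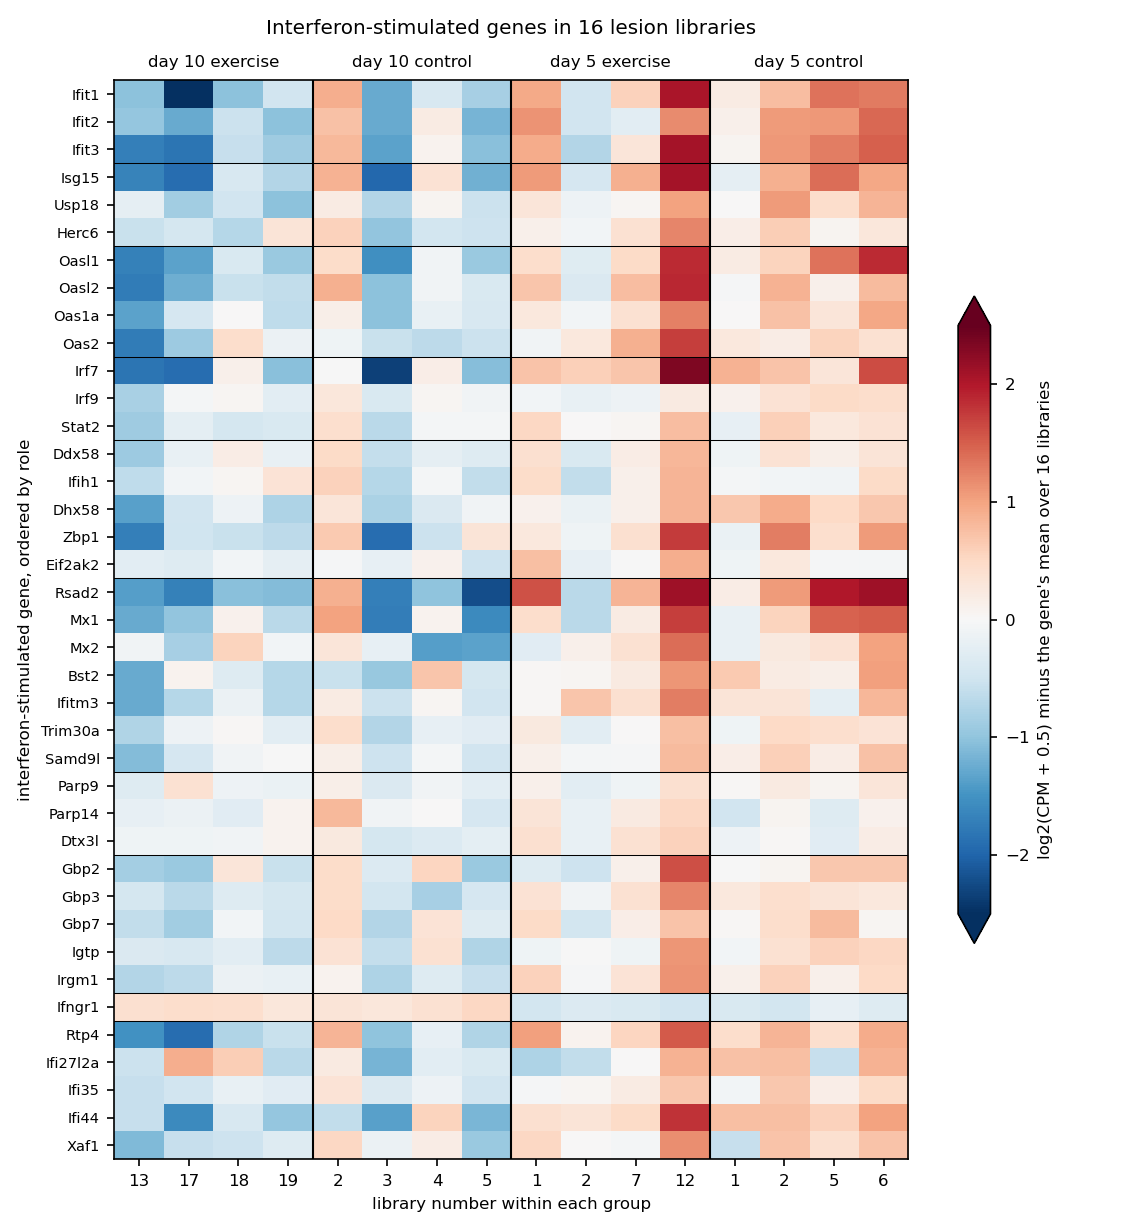
Level of each of the 39 genes (y axis, ordered by role) in each of 16 libraries (x axis, by label number within group), as log2(CPM + 0.5) minus the gene's mean over all libraries. The median gene is above its mean in the day 5 libraries except exercise library 2 and below it in the day 10 libraries except control library 2, day 5 exercise library 12 is the highest of its group for 38 genes, and Ifngr1 runs the other way.

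The IFIT genes, whose proteins bind foreign RNA and block its translation, lie side by side on chromosome 19. Ifit1 (ENSMUSG00000034459, chr19:34640871-34650009, plus strand) had 6.33, 1.76, 6.296 and 9.44 CPM in day 10 exercise lesions, 25.5, 5.27, 10.1 and 7.37 CPM in day 10 control, 26.4, 9.502, 20.2 and 56.8 CPM in day 5 exercise and 15.6, 23.1, 35.2 and 33.7 CPM in day 5 control. In exercise mice no day 10 library reached the lowest day 5 library, though library 19 of day 10 came close to library 2 of day 5, while in controls day 10 library 2 lay among the day 5 values. The log2 fold change of day 10 over day 5 was -2.25 (SE 0.59, adjusted p = 0.0241) in exercise and -1.15 (SE 0.56, adjusted p = 0.200) in control. Ifit3 (ENSMUSG00000074896, chr19:34583531-34588731, plus strand) had 10.1, 9.27, 22.8 and 18.2 CPM in day 10 exercise, 59.99, 13.3, 36.5 and 16.3 CPM in day 10 control, 65.4, 20.4, 42.2 and 146 CPM in day 5 exercise and 35.8, 72.8, 84.3 and 97.8 CPM in day 5 control. Day 5 exercise library 12 was far above the rest, and library 2 of that group fell within the day 10 range, so the groups overlapped. Its log2 fold change was -2.19 (SE 0.59, adjusted p = 0.0277) in exercise lesions. Reads of Ifit3 are uncertain because Ifit3b is a near-identical copy. Ifit2 averaged 24.5 ± 5.37 CPM in day 10 exercise, 42.9 ± 28.2 CPM in day 10 control, 70.2 ± 39.5 CPM in day 5 exercise and 94.2 ± 31.6 CPM in day 5 control (SD, n = 4 each). Its exercise groups did not overlap, but the change missed the threshold (log2 fold change -1.52, adjusted p = 0.0541).

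Isg15, a ubiquitin-like protein that is attached to other proteins, was the member with the third lowest fold change. Isg15 (ENSMUSG00000035692, chr4:156199424-156200818, minus strand) had 1.58, 1.27, 4.52 and 3.45 CPM in day 10 exercise, 11.5, 1.18, 7.91 and 2.37 CPM in day 10 control, 13.4, 4.43, 11.7 and 27.2 CPM in day 5 exercise and 5.17, 11.7, 16.8 and 12.4 CPM in day 5 control. Day 10 exercise library 18 and day 5 exercise library 2 were nearly level, so the exercise groups overlapped at that point. The log2 fold change of day 10 over day 5 was -2.39 (SE 0.66, adjusted p = 0.0288) in exercise and -0.99 (SE 0.61, adjusted p = 0.320) in control. Usp18, which removes ISG15 from its targets and restrains the type I receptor, averaged 12.4 ± 3.22 CPM in day 10 exercise, 16.8 ± 5.25 CPM in day 10 control, 25.1 ± 9.74 CPM in day 5 exercise and 30.2 ± 9.39 CPM in day 5 control (SD, n = 4 each). It fell in exercise lesions (log2 fold change -1.02, adjusted p = 0.0324) and had a value of -0.85 in control lesions (adjusted p = 0.0592). Herc6, the main ISG15 ligase of the mouse, had a log2 fold change of -0.83 in exercise (adjusted p = 0.125).

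The OAS genes encode enzymes that make oligoadenylates, which switch on RNase L, and relatives of those enzymes; all 4 members lie on chromosome 5. Oasl2 (ENSMUSG00000029561, chr5:114896936-114912234, plus strand) had 5.59, 8.198, 13.3 and 12.8 CPM in day 10 exercise, 37.1, 9.54, 18.7 and 15.2 CPM in day 10 control, 32.2, 15.3, 34.2 and 74.5 CPM in day 5 exercise and 19.6, 36.7, 21.8 and 34.6 CPM in day 5 control. All day 10 exercise libraries were below all day 5 exercise libraries, and in controls the highest value of either day belonged to day 10 library 2. For Oasl2 the log2 fold change was -1.97 (SE 0.47, adjusted p = 0.0135) in exercise and -0.48 (SE 0.44, adjusted p = 0.528) in control. Oasl1, which in the mouse restrains translation of Irf7, was scarce, with 0.279, 0.488, 1.42 and 0.812 CPM in day 10 exercise, 2.96, 0.364, 1.86 and 0.819 CPM in day 10 control, 2.89, 1.52, 2.99 and 8.56 CPM in day 5 exercise and 2.38, 3.17, 5.88 and 8.58 CPM in day 5 control. Its day 10 exercise values all lay below its day 5 exercise values, and its log2 fold change was -2.40 (SE 0.67, adjusted p = 0.0281). Oas1a averaged 7.33 ± 2.86 CPM in day 10 exercise, 8.57 ± 2.86 CPM in day 10 control, 15.8 ± 7.08 CPM in day 5 exercise and 15.9 ± 4.77 CPM in day 5 control (SD, n = 4 each), and fell in exercise lesions (log2 fold change -1.11, adjusted p = 0.0451). It belongs to a family of close copies, so its counts are uncertain. Oas2 stayed at or below 5.06 CPM in every library and did not pass (log2 fold change -1.68, adjusted p = 0.113 in exercise).

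Among the transcription factors, Irf7, the factor that amplifies type I interferon production, had the lowest fold change between the days in exercise lesions. Irf7 (ENSMUSG00000025498, chr7:141262706-141266481, minus strand) had 3.45, 3.22, 14.6 and 6.29 CPM in day 10 exercise, 13.4, 2.27, 15.2 and 6.14 CPM in day 10 control, 22.2, 20.5, 22.1 and 69.6 CPM in day 5 exercise and 25.04, 22.3, 16.8 and 42.9 CPM in day 5 control. The days did not overlap under either condition, and day 5 exercise library 12 was far above the other 3 of its group. For Irf7 the log2 fold change was -2.28 (SE 0.61, adjusted p = 0.0269) in exercise and -1.53 (SE 0.59, adjusted p = 0.104) in control. Stat2 (ENSMUSG00000040033, chr10:128270576-128292849, plus strand) had 28.6, 44.6, 39.02 and 40.6 CPM in day 10 exercise, 71.4, 33, 51.1 and 51.2 CPM in day 10 control, 76.3, 53.5, 55.1 and 91.3 CPM in day 5 exercise and 45.8, 80.2, 64.2 and 68.4 CPM in day 5 control. Exercise values did not overlap between the days and control values did. Stat2 fell in exercise lesions (log2 fold change -0.86, SE 0.23, adjusted p = 0.0221), with -0.32 in control lesions (adjusted p = 0.382). Irf9, the DNA-binding partner of the complex, averaged 91.8 ± 22.2 CPM in day 10 exercise, 107 ± 20.5 CPM in day 10 control, 106 ± 14.5 CPM in day 5 exercise and 138 ± 15.5 CPM in day 5 control (SD, n = 4 each), and did not pass in any comparison.

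**Figure D3:**
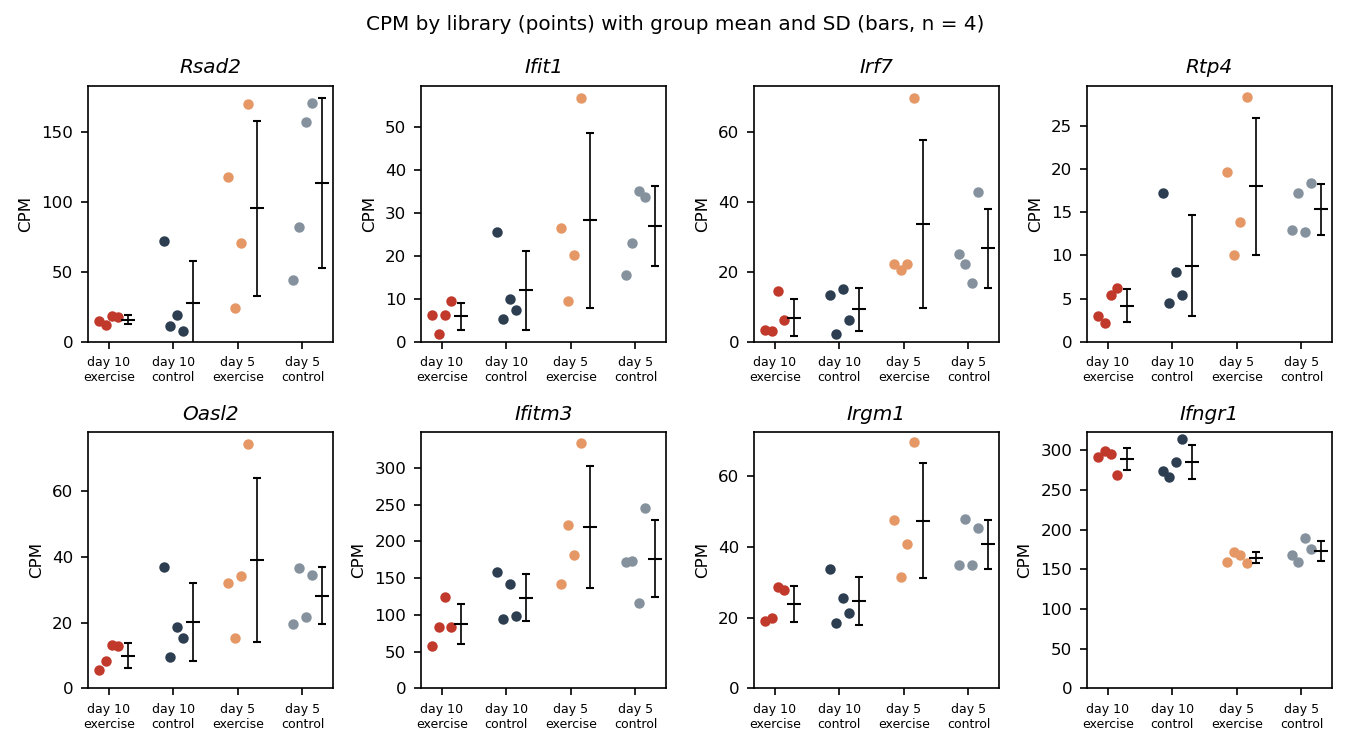
CPM (y axis, from 0) in each library (points) for 8 of the genes by group (x axis), with the group mean and SD as bars (n = 4); a lower bar that would pass 0 is drawn to 0. The 8 genes shown are all from those whose exercise libraries do not overlap between the days, with day 10 higher for Ifngr1 and lower for the other 7. Of all 39 members, 17 were lower and 1 was higher without overlap in exercise, and 21 overlapped. Of all tested genes, 7.09% were lower and 7% higher without overlap there.

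Of the 5 sensors of foreign nucleic acid, Dhx58 and Eif2ak2 fell in exercise lesions. Dhx58, which encodes LGP2, a regulator of the RIG-I-like helicases, had 10.1, 18.7, 24.3 and 15.2 CPM in day 10 exercise, 32.7, 15.1, 20.4 and 25.1 CPM in day 10 control, 28.7, 23.6, 28.9 and 48.2 CPM in day 5 exercise and 42.4, 50.6, 37.5 and 42.6 CPM in day 5 control. The control days did not overlap, whereas in exercise day 10 library 18 lay above day 5 library 2. Dhx58 fell under both conditions, with log2 fold changes of -0.92 (SE 0.27, adjusted p = 0.0348) in exercise and -0.89 (SE 0.26, adjusted p = 0.0326) in control. Eif2ak2, the kinase PKR that halts translation on double-stranded RNA, averaged 34.97 ± 2.59 CPM in day 10 exercise, 36.7 ± 6.57 CPM in day 10 control, 55.1 ± 20.4 CPM in day 5 exercise and 41.5 ± 5.08 CPM in day 5 control (SD, n = 4 each). Its log2 fold change was -0.66 (adjusted p = 0.0457) in exercise, with overlapping groups, and -0.18 (adjusted p = 0.621) in control. Zbp1, a sensor of left-handed nucleic acid, did not overlap between the days in exercise lesions and missed the threshold (log2 fold change -1.61, adjusted p = 0.0652). The RNA helicases did not pass in exercise lesions, with -0.56 for Ddx58, which encodes RIG-I (adjusted p = 0.197), and -0.34 for Ifih1, which encodes MDA5 (adjusted p = 0.524) on the log2 scale.

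The lowest fold change of the module was that of Rsad2, which encodes the antiviral radical enzyme viperin. Rsad2 (ENSMUSG00000020641, chr12:26442753-26456452, minus strand) had 14.6, 11.7, 18.5 and 17.96 CPM in day 10 exercise, 72.1, 11.5, 19.1 and 7.94 CPM in day 10 control, 118, 24.2, 70.3 and 169.6 CPM in day 5 exercise and 44.1, 82.1, 157 and 171 CPM in day 5 control. The day 10 exercise libraries were close to each other and below all day 5 exercise libraries, which spread widely, and day 10 control library 2 lay within the day 5 control range. For Rsad2 the log2 fold change was -2.61 (SE 0.69, adjusted p = 0.0249) in exercise and -2.03 (SE 0.66, adjusted p = 0.0568) in control. Ifitm3, a membrane protein that blocks viral entry and is the most abundant member per kilobase, had 57.5, 83.9, 125 and 83.4 CPM in day 10 exercise, 159, 94.4, 142 and 98.3 CPM in day 10 control, 141, 223, 182 and 334 CPM in day 5 exercise and 172, 173, 116 and 245 CPM in day 5 control. Its exercise days did not overlap and its control days did. The log2 fold change of Ifitm3 (ENSMUSG00000025492, chr7:141009586-141010770, minus strand) was -1.33 (SE 0.28, adjusted p = 0.00691) in exercise and -0.52 (SE 0.28, adjusted p = 0.250) in control. The other 5 antiviral effectors did not pass in exercise lesions. They were Mx1 (-1.34) and Mx2 (-0.61), dynamin-like GTPases, Bst2 (-0.92), which tethers virions to the cell, Samd9l (-0.63) and Trim30a (-0.49), all on the log2 scale of day 10 over day 5. Mx2 is annotated as a polymorphic pseudogene, and Trim30a has close copies, so its counts are uncertain.

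None of the 3 neighbouring genes Parp9, Dtx3l and Parp14 on chromosome 16 passed between the days. Parp9 and Dtx3l, which act as a pair in ADP-ribosylation and ubiquitylation, overlap on opposite strands, and the reads were counted by strand. Parp9 averaged 52.98 ± 11.9 CPM in day 10 exercise, 49.8 ± 7.75 CPM in day 10 control, 56.6 ± 11.6 CPM in day 5 exercise and 60.7 ± 5.52 CPM in day 5 control (SD, n = 4 each). Dtx3l averaged 43.1 ± 3.09 CPM in day 10 exercise, 39.6 ± 9.098 CPM in day 10 control, 55.7 ± 11.6 CPM in day 5 exercise and 43.3 ± 5.96 CPM in day 5 control. Neither passed in exercise, with log2 fold changes of -0.10 for Parp9 (adjusted p = 0.754) and -0.37 for Dtx3l (adjusted p = 0.161). Parp14, a mono-ADP-ribosyltransferase, differed in sign between the conditions, at -0.38 (adjusted p = 0.310) in exercise and 0.29 (adjusted p = 0.436) in control.

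The GTPases that interferon-gamma induces fell in part. Irgm1, which acts on membranes and autophagy of infected vacuoles, had 19, 20.01, 28.7 and 27.9 CPM in day 10 exercise, 33.8, 18.4, 25.4 and 21.2 CPM in day 10 control, 47.5, 31.4, 40.8 and 69.7 CPM in day 5 exercise and 34.8, 47.7, 34.8 and 45.3 CPM in day 5 control. The days did not overlap under either condition. Irgm1 (ENSMUSG00000046879, chr11:48861968-48871683, minus strand) fell in both, with log2 fold changes of -0.99 (SE 0.23, adjusted p = 0.0110) in exercise and -0.72 (SE 0.23, adjusted p = 0.0476) in control. Gbp3, a guanylate-binding protein, had 9.04, 7.61, 9.84 and 9.13 CPM in day 10 exercise, 17.4, 8.91, 6.79 and 9.17 CPM in day 10 control, 16.2, 11.7, 16.4 and 29.7 CPM in day 5 exercise and 15.03, 16.8, 15.8 and 15.1 CPM in day 5 control. Its exercise days did not overlap, and day 10 control library 2 exceeded the day 5 controls. The log2 fold change of Gbp3 was -1.06 (SE 0.27, adjusted p = 0.0197) in exercise and -0.56 (adjusted p = 0.189) in control. Gbp2 (-0.93), Gbp7 (-0.78) and Igtp (-0.76) were below 0 on the log2 scale in exercise and did not pass. The Gbp genes are similar to each other in sequence, which makes their counts uncertain.

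Ifngr1, the ligand-binding chain of the interferon-gamma receptor, is part of the machinery that senses interferon, and was higher at day 10. Ifngr1 (ENSMUSG00000020009, chr10:19591949-19610229, plus strand) had 291, 299, 295 and 268 CPM in day 10 exercise, 274, 266, 285 and 314 CPM in day 10 control, 159, 172, 168 and 158 CPM in day 5 exercise and 168, 159, 189 and 176 CPM in day 5 control. All 8 day 10 libraries were above all 8 day 5 libraries. It rose by a log2 fold change of 0.81 (SE 0.09, adjusted p = 5.23e-05) in exercise and 0.72 (SE 0.09, adjusted p = 9.10e-05) in control. The spread between libraries was small, with an SD of 13.8 CPM in day 10 exercise and 6.87 CPM in day 5 exercise.

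Of the remaining induced genes, Rtp4, a receptor-transporting protein that restricts viruses, had the lowest p of the genes that fell in exercise lesions. Rtp4 (ENSMUSG00000033355, chr16:23609919-23614222, plus strand) had 2.98, 2.15, 5.41 and 6.19 CPM in day 10 exercise, 17.2, 4.45, 8.098 and 5.403 CPM in day 10 control, 19.7, 10.01, 13.9 and 28.3 CPM in day 5 exercise and 12.9, 17.2, 12.7 and 18.4 CPM in day 5 control. Exercise days did not overlap, and day 10 control library 2 stood with the day 5 controls. For Rtp4 the log2 fold change was -2.10 (SE 0.42, adjusted p = 0.00438) in exercise and -0.79 (SE 0.40, adjusted p = 0.211) in control. Ifi44 had 2.701, 1.07, 3.104 and 1.93 CPM in day 10 exercise, 2.58, 1.36, 6.52 and 1.64 CPM in day 10 control, 5.78, 5.45, 6.08 and 16.1 CPM in day 5 exercise and 7.47, 7.498, 6.59 and 9.01 CPM in day 5 control. The days did not overlap under either condition, and Ifi44 fell in exercise (log2 fold change -1.92, adjusted p = 0.0139) with -1.34 in control (adjusted p = 0.0600). Xaf1, an antagonist of the apoptosis inhibitor XIAP, averaged 5.08 ± 1.19 CPM in day 10 exercise, 7.92 ± 3.24 CPM in day 10 control, 11.4 ± 4.97 CPM in day 5 exercise and 10.6 ± 3.82 CPM in day 5 control (SD, n = 4 each). Xaf1 fell in exercise lesions (log2 fold change -1.17, adjusted p = 0.0462). Ifi35 did not overlap between the days in exercise and missed the threshold (log2 fold change -0.64, adjusted p = 0.0619). Ifi27l2a, at 0.364 to 3.12 CPM over all libraries and with close copies, was the member other than Ifngr1 with a value above 0 in exercise (0.27, adjusted p = 0.823).

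**Figure D4:**
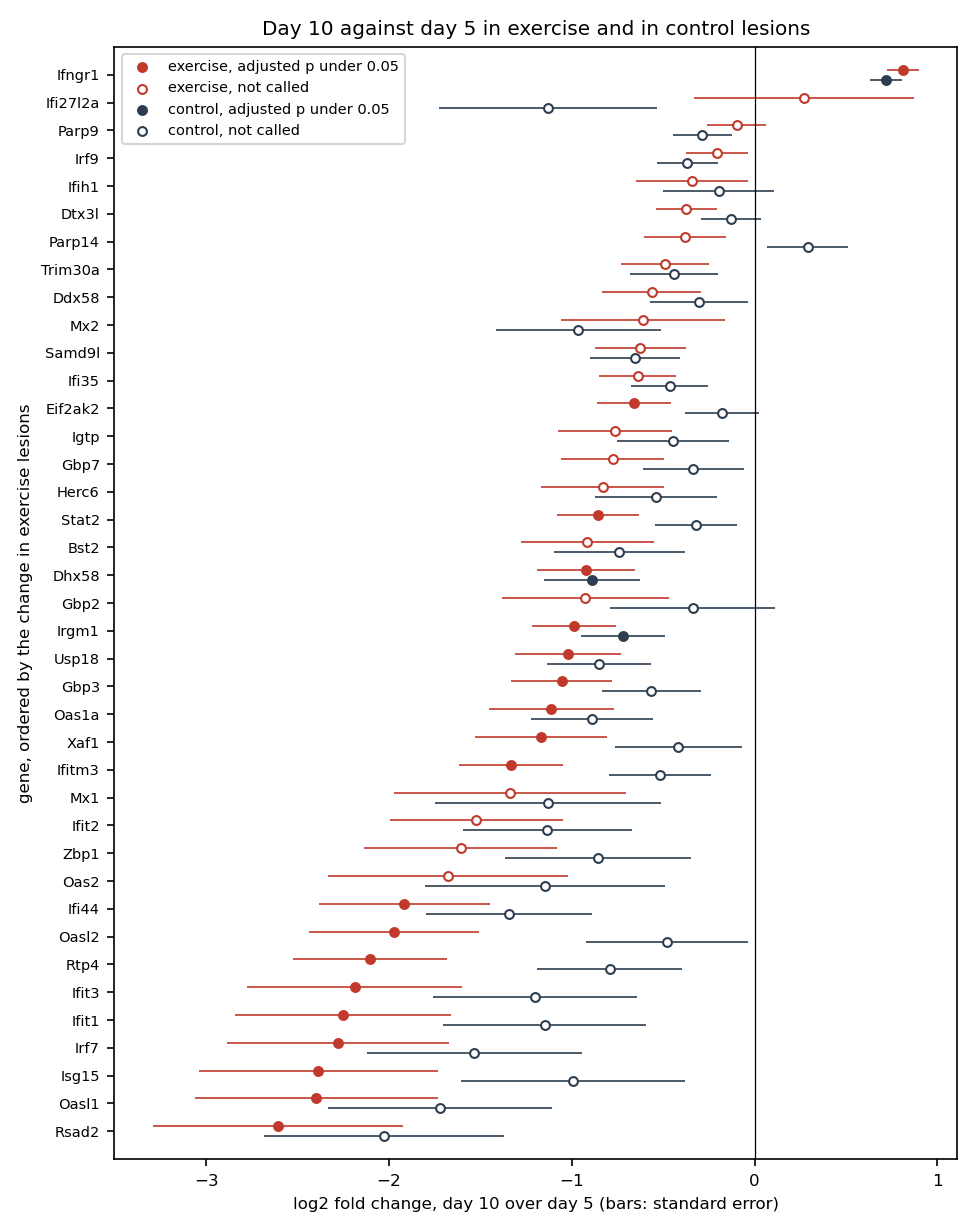
Log2 fold change of day 10 over day 5 (x axis) for the 39 genes (y axis, ordered by the value in exercise), in exercise lesions (red) and control lesions (dark), with standard errors as bars. Filled points passed an adjusted p of 0.05: 19 in exercise and 3 in control, with 37 of 39 below 0 under each condition.

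Counted over the module, 18 genes were lower and 1 was higher at day 10 in exercise lesions, against 4.9% of all tested genes called lower, 5.17% called higher and 10.1% called in either direction. The median log2 fold change was -0.93 over the members and 0.01 over all genes, and 37 of 39 members were below 0, against 49.4% of all genes. At an unadjusted p of 0.05, 29 members passed, against 25.8% of all genes. The libraries of the days did not overlap for 17 members that were lower and 1 that was higher, against 7.09% of all genes lower and 7% higher. In control lesions 2 members were lower (Dhx58 and Irgm1) and 1 was higher (Ifngr1), against 6.64% of all genes lower and 5.66% higher. The control median was -0.66, against 0.01 over all genes, with 37 of 39 below 0 against 48.8%. Unadjusted, 15 members passed, against 26.9% of all genes, and 6 were lower and 1 was higher without overlap, against 10.7% of all genes lower and 9.33% higher.

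The count in exercise lesions depended on single libraries. Without day 5 exercise library 12 it was 5 (Ifitm3, Irgm1, Oasl2, Rtp4 and Ifngr1), and without day 10 exercise library 13, 17 or 19 it was 8, 9 and 9 in that order; the median without library 12 was -0.70, with 36 of 39 below 0. Those 5 genes were called under every one of the 22 alternatives run. The share of all genes called under each alternative is not given here. A shift in the members' count therefore cannot be told from a general shift in calls. The calls of Eif2ak2 and Xaf1 held in 7 of the 22, that of Oas1a in 9, and that of Irgm1 in control in 10; the other 11 genes called in exercise held in 15 to 21, and Dhx58 in control in 14. In control lesions the count was 7 without day 10 control library 2, where Gbp3, Oasl1, Rsad2 and Rtp4 joined, 5 without day 5 exercise library 12, and 1 (Ifngr1) without day 5 control library 2 or 6 or day 10 control library 3 or 5.

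The difference of the day effect between exercise and control lesions was tested itself, as an interaction. No member passed by edgeR, against 0% of all tested genes, and none did by DESeq2 or limma-voom. Unadjusted, 3 members passed (9.11% of all genes did): Oasl2 (-1.49, SE 0.64, adjusted p = 0.521), Rtp4 (-1.31, SE 0.57, adjusted p = 0.521) and Parp14 (-0.67, SE 0.32, adjusted p = 0.544), all on the log2 scale. The median over the members was -0.39, with 33 of 39 below 0, against 48.4% of all genes. Without day 5 exercise library 12 it was -0.03, with 21 of 39 below 0, and without day 10 control library 2 it was -0.11, with 24 of 39 below 0. The larger number of calls in exercise than in control lesions is therefore not shown to be a different day effect.

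Between exercise and control, no member passed at day 10 by edgeR, against 0.192% of all tested genes (0.106% higher and 0.0861% lower), and none by DESeq2 or limma-voom. At an unadjusted p of 0.05 there were 2 members, Rtp4 and Oasl2, against 12.8% of all genes. Rtp4 had 2.98, 2.15, 5.41 and 6.19 CPM in exercise and 17.2, 4.45, 8.098 and 5.403 CPM in control lesions, so that day 10 control library 2 lay above all others and the rest overlapped (log2 fold change -1.08, SE 0.42, adjusted p = 0.302). Oasl2 had a log2 fold change of -1.02 (SE 0.46, adjusted p = 0.372). In all, 32 of 39 members were below 0, against 47.9% of all genes, with a median of -0.37 against 0.01. No member had groups without overlap, against 2.58% of genes lower and 3.3% higher. Day 10 control library 2 was the highest of its group for 32 members, and without it the median was -0.12.

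At day 5 no member passed by edgeR, DESeq2 or limma-voom, and edgeR called 0% of all tested genes. Unadjusted, 2 members passed, Irf9 and Dtx3l, against 10% of all genes. Irf9 had 103, 94.4, 98.7 and 127 CPM in exercise and 116, 139, 151 and 146 CPM in control lesions, with overlap (log2 fold change -0.39, SE 0.17, adjusted p = 0.454). Dtx3l had 58.7, 39.3, 58.4 and 66.5 CPM in exercise and 40.8, 45.2, 36.6 and 50.5 CPM in control lesions, also with overlap (log2 fold change 0.37, SE 0.16, adjusted p = 0.481). The median over the members was 0.08, with 18 of 39 below 0 against 48.4% of all genes. It was -0.05 by limma-voom, -0.09 without day 5 control library 1, and -0.29 without day 5 exercise library 12, when 34 of 39 were below 0. No member had groups without overlap, against 3.97% of genes lower and 3.33% higher. The authors' deposited tables of exercise against control likewise list 0 members at an adjusted p under 0.05 (at day 5 they give none for Oasl1, Oas2 and Ifi27l2a), with 271 genes of any kind at day 5 and 179 at day 10. In the authors' deposited table for day 10, which leaves out exercise library 17, 33 members were below 0 with a median log2 fold change of -0.30.

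Within a group, the same library was often the highest or the lowest for many members. Day 5 exercise library 12 was the highest of its group for 38 of 39 members, while it was the highest for 25.4% of all tested genes. Library 2 of that group was the lowest for 30 members, against 26.5% of genes. At day 10 control library 2 was the highest for 32 members (23.2% of genes) and library 3 the lowest for 29 (24.2% of genes). At day 5 control library 6 was the highest for 20 members (24.8% of genes) and library 1 the lowest for 27 (27.9% of genes). The summed CPM of the 38 members other than Ifngr1 was 596.3 to 944.8 in day 10 exercise, 661.7 to 1432 in day 10 control, 1016 to 2396 in day 5 exercise and 1148 to 1850 in day 5 control.

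Markers of several cell types also differed between the days. The lists are given by their summed CPM or by the log2 fold changes of their tested genes. Of all tested genes, 5.17% were called higher and 4.9% lower at day 10 in exercise, and 5.66% and 6.64% in control. The 7 monocyte-derived cell markers summed to 55.3 to 103 CPM in day 10 exercise, 84.8 to 132 CPM in day 10 control, 222 to 544 CPM in day 5 exercise and 179.8 to 566 CPM in day 5 control. Of the 6 tested, 3 were lower in exercise (median -2.09) and 2 in control (median -0.10). Arg1 made up much of the sum at day 5, while Ly6c2, a marker of inflammatory monocytes, lay between 0.0887 and 6.08 CPM. The 7 endothelial markers summed to 126 to 228 CPM in day 10 exercise, 149.6 to 187 CPM in day 10 control, 165 to 209 CPM in day 5 exercise and 151 to 194 CPM in day 5 control, and Flt1 alone held 49.8 to 184 CPM of a library. In exercise 6 of the 7 endothelial genes were below 0 and 3 were called lower, with a median of -1.02. In control 0 were called by edgeR (1 unadjusted, against 26.9% of all genes), with a median of -0.11. The 6 neuron markers summed to 60.4 to 302 CPM in day 10 exercise, 82.8 to 263 CPM in day 10 control, 233 to 455 CPM in day 5 exercise and 158 to 294 CPM in day 5 control. The highest of these neuron sums was that of day 5 exercise library 12, the library that was also highest of its group for 38 members. Library 12 also had the highest astrocyte sum of its group (5116 CPM, lowest 3108) and the highest lymphocyte sum (5.25 CPM). Its sums were the lowest of the group for the monocyte-derived, neutrophil, phagocyte, plasmacytoid dendritic cell and fibroblast lists. In exercise all 6 neuron genes were below 0 and 2 were called lower (median -1.46), and in control 5 were below 0 and 1 was called lower (median -0.59).

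The 5 phagocyte markers summed to 5352 to 7581 CPM in day 10 exercise, 6128 to 7345 CPM in day 10 control, 8517 to 13290 CPM in day 5 exercise and 7573 to 13440 CPM in day 5 control, of which Lyz2 alone made up 4601 to 11790 CPM. The genes of that list went both ways in exercise, with 3 called lower and 1 higher, and 2 were called lower in control. Of the 7 microglia markers, 5 were called higher and 0 lower in exercise (median 1.01), and 4 higher and 0 lower in control (median 0.71). Of the 5 astrocyte markers, 2 were called higher and 0 lower in exercise (median 0.30), and 3 higher and 0 lower in control (median 0.60). Neutrophil markers, 6 in all, summed to 0.293 to 3.65 CPM in day 10 exercise, 1.09 to 18.3 CPM in day 10 control, 5.16 to 20.1 CPM in day 5 exercise and 4.58 to 10.8 CPM in day 5 control. Oligodendrocyte markers, 6 in all, summed to 11140 to 25750 CPM in day 10 exercise, 22580 to 25390 CPM in day 10 control, 11140 to 15760 CPM in day 5 exercise and 10040 to 13820 CPM in day 5 control. The 9 lymphocyte markers summed to 1.40 to 6.00 CPM over all libraries. The 6 plasmacytoid dendritic cell markers, which include the member Bst2, summed to 515 to 756 CPM, mostly Tcf4 (460.3 to 733 CPM); Ccr9 reached 5.68 CPM, Cox6a2 2.91 CPM and Klk1 0.0964 CPM. Of the 4 tested, 1 was called higher in exercise (median 0.58) and 1 lower in control (median -0.25). Every listed marker of these types was found and none was at 0 in all 16 libraries. The part of these cell types in the day difference of the members was not tested.

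Few or no counts were found for the 10 interferon genes looked up. Other interferon genes and interferon protein were not examined. Of 10 ligand genes, 6 (Ifnb1, Ifna2, Ifna4, Ifna5, Ifnl2 and Ifnl3) had 0 counts in all 16 libraries, which over all libraries together allows up to 0.0167 CPM (3 counts, counting error only). Ifng had 3 counts in 2 libraries, Ifna1 and Ifne had 1 count each, and Ifnk had 70 counts over 14 libraries. None of the 10 passed the filter, so no comparison was made. At this depth the transcripts of those 6 genes were not detected. Trex1 and Ifi44l, from the lists below, also had 0 CPM in every library. Whether such values come from the counting was not tested.

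Of 10 receptor and signalling genes listed, 9 were tested and none passed between the days by edgeR. At an unadjusted p under 0.05 there were 2 in exercise (25.8% of all genes) and 0 in control (26.9%). The median log2 fold change of the 9 was -0.03 in both. Ifnar2, a chain of the type I receptor, had a log2 fold change of 0.34 in exercise (adjusted p = 0.113), the smallest p of the list there. Irf1, the interferon-gamma responsive factor, had 0.46 in control (adjusted p = 0.187). Of the 5 inhibitors 4 were tested, and Pias1, an inhibitor of STAT signalling, rose in exercise lesions (log2 fold change 0.39, adjusted p = 0.00909). Of all tested genes, 5.17% were called higher there. None of the 4 passed in control by edgeR. At an unadjusted p under 0.05 there were 2 (26.9% of all genes), Pias1 (0.23, adjusted p = 0.102) and Socs3 (-0.44, adjusted p = 0.138).

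Nucleic acid sensing genes included 3 that rose. Of 15 listed, 13 were tested, and 3 were higher and 0 lower at day 10 in exercise, with a median log2 fold change of 0.12. Of all tested genes, 5.17% were called higher and 4.9% lower there. Irf8, a myeloid and microglial factor, had 459.8, 602, 439 and 449 CPM in day 10 exercise and 248, 288, 249 and 307 CPM in day 5 exercise, without overlap (log2 fold change 0.84, adjusted p = 0.00129). Tlr9, the endosomal DNA receptor, had 4.66, 6.05, 3.902 and 2.13 CPM in day 10 exercise and 0.722, 1.900, 1.35 and 1.47 CPM in day 5 exercise, also without overlap (log2 fold change 1.63, adjusted p = 0.0189). Tmem173, which encodes STING, rose by 0.49 on the log2 scale (adjusted p = 0.0438). In control lesions none of the 13 passed by edgeR, against 12.3% of all genes. Unadjusted, 2 did, Irf8 (0.38, adjusted p = 0.0882) and Tbk1 (-0.42, adjusted p = 0.0987), against 26.9% of all genes.

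The other interferon-induced genes, none of them a member, were lower in part. Of 43 listed, 40 were tested, and 9 were lower and 0 higher at day 10 in exercise lesions. Of all tested genes, 4.9% were called lower and 5.17% higher there. In exercise 34 of the 40 were below 0, against 49.4% of all genes, with a median of -0.55. On the log2 scale they were the chemokine gene Cxcl10 (-2.48), Ifit3b (-2.19), the mitochondrial kinase Cmpk2 (-1.99), which lies beside Rsad2, the GTPase gene Ifi47 (-1.87), the schlafens Slfn5 (-1.62), Slfn9 (-1.56) and Slfn2 (-1.04), Phf11b (-1.47) and the lysosomal thiol reductase Ifi30 (-0.88). Cxcl10 had 3.82, 2.83, 3.72 and 5.48 CPM in day 10 exercise, 14.3, 3.999, 28.3 and 5.73 CPM in day 10 control, 24.5, 4.31, 16.5 and 42.6 CPM in day 5 exercise and 10.3, 23.2, 57.8 and 34.5 CPM in day 5 control. Day 5 exercise library 2, which was low for most members, fell within the day 10 range here too (adjusted p = 0.0384 in exercise). In control lesions Ifi30 alone of the 40 was lower, at 25.1, 26.6, 36.3 and 35.5 CPM in day 10 control and 65.4, 82.1, 79.3 and 87.5 CPM in day 5 control (log2 fold change -1.35, adjusted p = 0.000262), with 31 of 40 below 0 and a median of -0.43. Of all tested genes, 6.64% were called lower in control and 48.8% were below 0. An ISRE core was found in 13 of the 33 genes of this list with a promoter window, against 3.99% of all genes. A GAS core was found in 7 of the 33, against 9.55%.

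**Figure D5:**
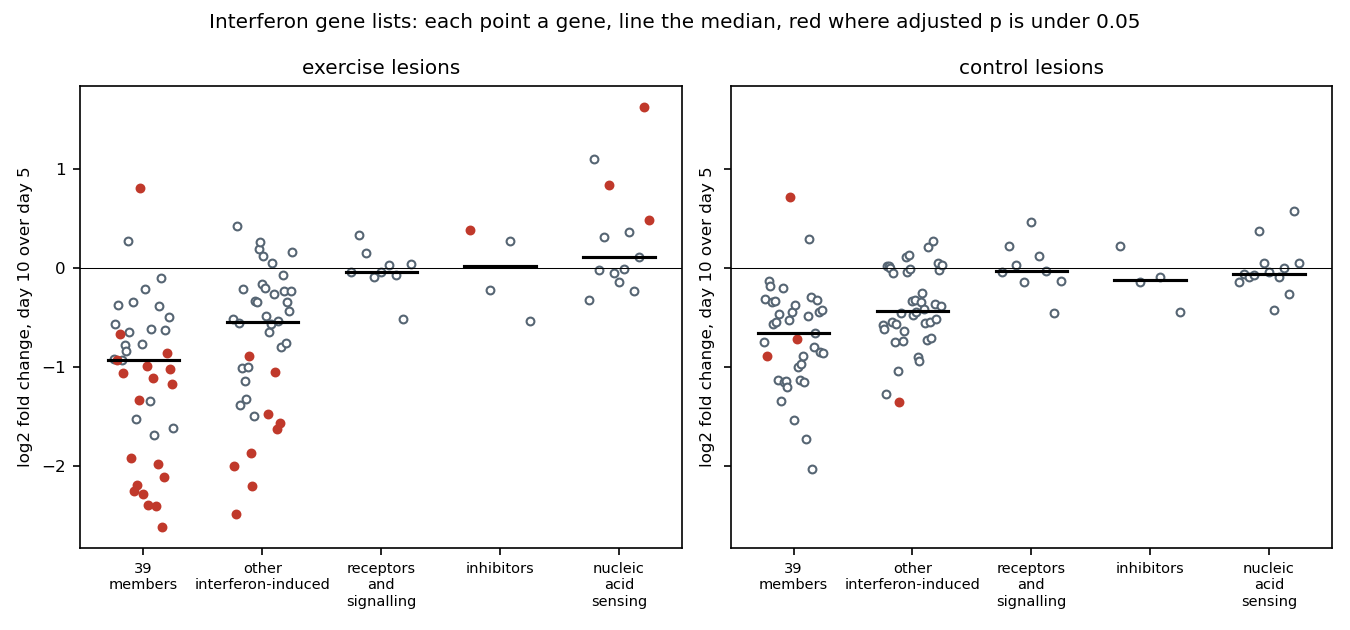
Log2 fold change of day 10 over day 5 (y axis) for each tested gene (points) of the 39 members and of 4 other interferon lists (x axis), in exercise (left) and control lesions (right), with the median as a line and genes at an adjusted p under 0.05 in red. Medians are -0.93 and -0.66 for the members and -0.55 and -0.43 for other induced genes, and near 0 for receptors and signalling.

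Between exercise and control, 0 genes of these 4 tested lists passed by edgeR at either day, against 0.192% of all genes at day 10 and 0% at day 5. The smallest p over the lists belonged to Ifi47 at day 10 (log2 fold change -1.43, adjusted p = 0.169), followed by Ikbke (1.39, adjusted p = 0.182), and to Slfn9 at day 5 (1.47, adjusted p = 0.234), followed by Sp110 (0.77, adjusted p = 0.386). Ifi47 had 4.005, 2.73, 4.08 and 5.99 CPM in day 10 exercise and 19.9, 5.73, 11.6 and 8.02 CPM in day 10 control, where the exercise library 19 and control library 3 overlapped. Slfn9 had 8.94, 7.601, 4.15 and 11.7 CPM in day 5 exercise and 3.26, 3.17, 2.495 and 2.76 CPM in day 5 control, without overlap. Unadjusted, 7 of the 40 other induced genes passed at day 10, against 12.8% of all genes, and 5 at day 5, against 10% of all genes. Within the lists, the other genes with the 2 smallest p at day 10 had log2 fold changes of 0.43 (Parp11), 1.35 (Tlr9), 0.62 (Tyk2), 0.17 (Ifngr2), -0.24 (Ptpn2) and 0.20 (Ptpn6). At day 5 they had 0.45 (Tyk2), -0.14 (Ifnar2), -0.15 (Pias1), 0.31 (Socs3), -0.28 (Irf8) and -0.22 (Irf5). The interaction called none of the tested genes of the 4 lists by edgeR, and those at an unadjusted p under 0.05 were valued at -1.41 for Ifi47, -1.02 for Slfn9, -1.38 for Cmpk2, 0.39 for Irf5 and 0.46 for Irf8 on the log2 scale, where the smallest adjusted p was 0.519.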

How the data were processed

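Per the submitters' processing notes, FastQC 0.11.4, TopHat2 2.0.10, Bowtie 1.1.2, featureCounts 1.5.0-p1, DESeq2 1.12.4 and GRCm38 were used; per the file headers featureCounts counted reads on the gene's strand. The deposited values used are raw counts and gene lengths per gene, and the authors' tables of exercise against control hold log2 fold changes and adjusted p-values; whether those fold changes were moderated is not given in the sources used here. From the deposited counts, edgeR 4.0.16 (R 4.3.3) was fitted with TMM scaling, filterByExpr (minimum count 10, minimum total 15), 4 group means over 16 libraries and a robust quasi-likelihood test; p-values were adjusted by Benjamini-Hochberg over 15096 genes at a threshold of 0.05. CPM use TMM-scaled library totals. The procedure was also run on simulated counts, and the outcome is not reported here. Those counts were drawn separately for each gene, so the run does not cover shifts that many genes share within a library. Alternatives were no filter, DESeq2 size factors, DESeq2 1.42.0, limma-voom 3.58.1, only the 8 libraries compared, a replicate block, and leaving out each library. Members and lists were chosen with earlier results of these data known. Named genes were the members and, of each other list, the called genes or, where a comparison called none, those with the 2 smallest p; genes named beyond these were chosen after their values were seen. Genes with near-identical copies are uncertain. The limit for ligands with 0 counts covers counting error only, whereas the standard errors and SDs include the spread between libraries. The values of some listed genes are not reported here.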

Additional observations from a re-analysis of the deposited data

Results flagged for a closer look

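Within groups of 4 libraries, 10 of 156 sets of member values had a highest or lowest library that stood apart by Dixon's criterion at 95%; chance gives about 1 in 20. Of these, 7 were high values of day 5 exercise library 12: Irf7 at 69.6 CPM, Zbp1 at 51.8 CPM, Bst2 at 53.0 CPM, Samd9l at 32.4 CPM, Gbp2 at 77.4 CPM, Igtp at 22.3 CPM and Ifi44 at 16.1 CPM. Ifih1 was high in day 5 control library 6, at 41.0 CPM. Dtx3l was high in day 10 exercise library 19, at 47.7 CPM. Ifi27l2a was low in day 5 control library 5, at 0.802 CPM.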

How the results depend on the processing

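The count of members called between day 10 and day 5 in exercise lesions, 19, was 9 without the filter on low counts and 11 with the replicate block, and ranged from 5 to 21 when single libraries were left out. By DESeq2 it was 23, by limma-voom 13, and with only the 8 libraries compared 16. In control lesions the count, 3, was 1 without the filter, 7 by DESeq2, 8 by limma-voom, 7 with only the 8 libraries compared and 2 with the replicate block, and ranged from 1 to 7 when single libraries were left out. No alternative called a member between exercise and control at either day or in the interaction, the replicate block included. The replicate numbers are not stated to pair the libraries. Correlations of same-numbered deviations were 0.0687 and -0.0293 between day 5 exercise and day 5 control. They were 0.0561 and 0.0173 between day 10 control and day 5 control. No known pair was at hand for comparison, so these values cannot decide whether same-numbered libraries shared handling. Apart from leaving out single libraries, the cause of these shifts was not tested. They are given without the share of all genes called under each setting, so a general shift in calls cannot be told apart. Low counts limit Oas2, Ifi44, Oasl1 and Ifi27l2a, whose libraries often hold a few CPM.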
